A study of Homo sapiens with 6 samples.

Results

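A set of 9 genes for large chromatin-modifying enzymes was examined for N6-methyladenosine (m6A) in their RNA: KMT2A, KMT2B, KMT2C, KMT2D, SETD1A, SETD1B and SETD2, which encode histone methyltransferases, and EP300 and CREBBP, which encode histone acetyltransferases. A peak was counted as theirs when its centre lay within the gene's hg19 span on the gene's strand. That span includes introns, so shares of a locus, gaps and positions along it depend on intron length. The 9 genes held 61 peaks in MeRIP 1, 59 in MeRIP 2 and 58 in MeRIP 3, which merged into 69 regions out of 25737 in the series. All came from wild-type HEK293T cells, a line derived from human embryonic kidney and expressing SV40 large T antigen, and no treatment is named in the labels. The data were 3 repeats of methylated RNA immunoprecipitation sequencing (MeRIP-seq), each an IP library and its own Input (6 samples), in which fragments bound by an antibody to m6A are sequenced beside unselected RNA. Separate cultures are not stated in the labels, so the spread between repeats may be technical.

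m6A is added to messenger RNA mainly by METTL3 with METTL14, at adenosines within short motifs such as GGAC. It is known to be frequent in unusually long internal exons, around stop codons and in 3′ untranslated regions, and it is read by proteins that affect splicing, decay and translation. The KMT2 and SETD1 enzymes methylate histone H3 at the lysine that marks promoters and enhancers, SETD2 adds the trimethyl mark found over transcribed gene bodies, and EP300 with CREBBP acetylate histones at enhancers and promoters. All 9 are recurrently mutated in cancer or in developmental syndromes.

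Each peak carries the authors' score, which ran from 50 to a ceiling of 3100 that many peaks share (a few lie slightly above it). Its scale is not stated in these sources. The values look like a log-transformed p-value, which would depend on coverage and peak width as well as on methylation. The score is used here to describe and rank peaks and not as a level of m6A. Read depth is unknown from peak lists, and so is the expression of the 9 genes. A region absent from a list may therefore still be methylated there.

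The RNA of these genes carried recurrent and high-scoring m6A regions. Of the 69 regions, 51 had a peak in all 3 lists (73.9%, 95% Wilson interval 62.5 to 82.8%), beside 59.3% of all regions of the series. A further 6 were in 2 lists (8.70%, beside 17.9% in the series) and 12 were in 1 list (17.4%, beside 22.8%). Every gene had at least 3 regions in all 3 lists. That count was not made over other genes of the series, so whether it is particular to these 9 was not tested. The intervals cover counting error only, regions of 1 gene share its expression, and the series values include the 69 regions.

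Among regions in all 3 lists, 25 of the 51 were at the ceiling in every list (49.0%, interval 35.9 to 62.3%), beside 18.9% in the series. The lowest of a region's 3 scores had a median of 2023 in the 9 genes and 480 over the series, or 10.98 and 8.91 on the log2 scale. The median width was 671 bp in the 9 genes and 538 bp over the series. Of the 51, 20 were over 1000 bp (39.2%, interval 27.0 to 52.9%, beside 31.8%), 5 were over 3000 bp (9.80%, interval 4.26 to 21.0%, beside 4.95%) and 12 were up to 300 bp (23.5%, interval 14.0 to 36.8%, beside 34.2%). Each of these width intervals holds the series value. The share at the ceiling was also set beside the series within classes of width. Over 1000 bp, 16 of 20 regions were at the ceiling in every list (80.0%, interval 58.4 to 91.9%), beside 36.2% of the 4854 such regions of the series. From over 300 up to 1000 bp the count was 8 of 19 (42.1%, interval 23.1 to 63.7%), beside 17.4%. Up to 300 bp it was 1 of 12 (8.33%, interval 1.49 to 35.4%), beside 4.39%, and that interval holds the series value. These are descriptions of a chosen set of genes, and no test was made of the set against the series.

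**Figure D1:**
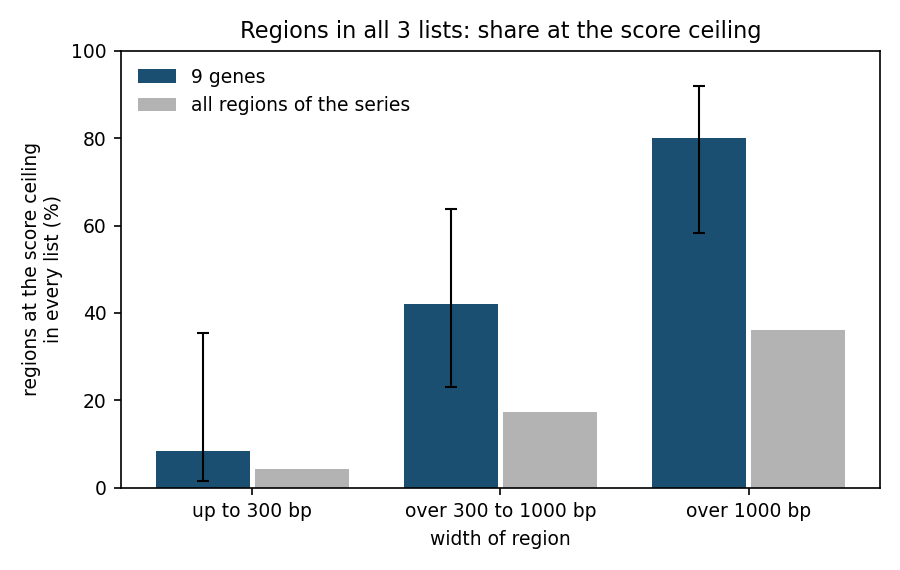
Share of regions in all 3 lists that were at the score ceiling of 3100 in every list, by width of region. Dark bars are the 9 genes with 95% Wilson intervals, and grey bars are all regions of the series; the dark bar is at 80.0% and the grey one at 36.2% for regions over 1000 bp.

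KMT2A, the founding MLL gene, whose translocations drive acute leukaemias, had the greatest length under peaks of the 9 genes. Peaks covered 13558, 12583 and 11938 bp in MeRIP 1, 2 and 3, or 14.1% of its 90.3 kb locus on average. Most of this lay in 3 regions. The region at chr11:118373113-118377361 (+ strand), 4249 bp wide, and the region at chr11:118342377-118345030, 2654 bp wide, both scored 3100 in each list with identical edges. KMT2A is known to have very long internal exons, but no hg19 annotation was used here, so these regions were not matched to exons.

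The last KMT2A region, at chr11:118392612-118397201, was the widest at 4590 bp and differed between repeats. It was 1 peak of score 276 in MeRIP 1 and 1 of score 278 in MeRIP 2, and it was split in MeRIP 3 into a peak of 1658 bp with score 1448 and one of 2308 bp with score 199. The region thus stood below the ceiling in every list in spite of its width. A region of 455 bp at the 5′ bound of the locus (chr11:118307205-118307659) was weak, at 179, 117 and 51.8. A region of 378 bp in mid-gene, at chr11:118352430-118352807, scored 1370, 454 and 2233, a range of 4.92-fold between lists. The rest of KMT2A was weak. The region at chr11:118348682-118348917 scored 351, 266 and 190. One of 65 bp at chr11:118350889-118350953 scored 129 and 50 in MeRIP 1 and 2 alone, and 3 regions were found only in MeRIP 1, with scores of 58.9, 163 and 62.0.

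KMT2B, the closest paralogue of KMT2A, encodes a protein of the same architecture and is needed in oocytes and early embryos in the mouse. It had 4 regions in a locus of 20.9 kb. Regions of 2021 bp at chr19:36210686-36212706 (+ strand) and 1294 bp at chr19:36223116-36224409 were at 3100 in every list. The last region, at chr19:36229183-36229779, reached the 3′ bound of the locus and scored 735, 978 and 696. These 3 regions had the same edges in all 3 lists, and the other, of 147 bp at chr19:36216380-36216526 with a score of 369, was in MeRIP 1 alone.

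KMT2C and KMT2D encode the large subunits of enhancer methyltransferase complexes and are among the most frequently mutated chromatin genes in tumours. Their peaks were unlike each other in score. KMT2C had 1 of its 8 recurrent regions at the ceiling in every list, whereas KMT2D had 5 of 6. In KMT2D, mutated in Kabuki syndrome, peaks covered 29.0% of a 36.4 kb locus, the highest share among the 9. That share also depends on intron length. The 5 ceiling regions were, from 5′ to 3′ on the minus strand, chr12:49444669-49446207 of 1539 bp, chr12:49430908-49432772 of 1865 bp, chr12:49424958-49427747 of 2790 bp, chr12:49419965-49421105 of 1141 bp and chr12:49412758-49415655 of 2898 bp. The last ended 8 bp from the 3′ bound of the locus and had identical edges in all lists. The sixth recurrent region was narrow, with 176 bp at chr12:49422844-49423019, and scored 1617, 2769 and 2114. Weak peaks made up the other 2 regions: 82.2 and 55.1 in MeRIP 1 and 2 at chr12:49418593-49418729, and 85.4 in MeRIP 3 alone at chr12:49440392-49440573.

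In KMT2C, peaks covered 3.10% of a 301 kb locus and lay mostly in its 3′ part. Introns count in that length, so the share and the position do not describe the spread of peaks along the mRNA. A region of 380 bp at the 5′ bound (chr7:152132711-152133090, minus strand) scored 329, 289 and 410. It was followed by 187 kb without a peak in any list, the largest gap in the 9 genes. Of the 10 regions, 7 had their centre in the last 20% of the locus. The region at the ceiling in every list was chr7:151859202-151860911, of 1710 bp. Its neighbour at chr7:151873276-151875095, of 1820 bp, scored 2241, 3100 and 1301, and the wider one at chr7:151877796-151879679, of 1884 bp, scored 859, 374 and 1459. Spread between lists cannot be compared with the wide KMT2D regions, which were tied at the ceiling.

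Further KMT2C regions scored 3082, 1232 and 2845 at chr7:151944987-151945705, 2014, 887 and 1664 at chr7:151855942-151856157, and 1470, 1899 and 2610 at chr7:151845118-151846237. A region of 356 bp at chr7:151835634-151835989 scored 209, 204 and 198, nearly the same in each list, with the downstream edge 48 bp farther out in MeRIP 1. The last region, at chr7:151833187-151835253, was called in 2 lists, with 103 over 2067 bp in MeRIP 1 and 1543 over 1270 bp in MeRIP 3. That is a 15.0-fold range of scores, the widest among member regions found in more than 1 list. A peak of 56.8 at chr7:151932902-151933018 was found in MeRIP 3 alone. Parts of KMT2C are known to have near-identical copies elsewhere in the genome, and the placement of reads from such copies is not stated in these sources, so its values are uncertain there.

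SETD1A and SETD1B, the catalytic subunits of the SET1 complexes that carry out most promoter methylation of this kind, had recurrent regions throughout. SETD1A, in which loss-of-function variants predispose to schizophrenia, had the same regions in each list: all 6 of its regions were in all 3 lists, and all 6 had identical edges. Peaks covered 3884 bp in each list. Its first region, at chr16:30968615-30969285 (+ strand), began 5 bp from the 5′ bound of the locus and was at the ceiling in each list (3100, 3212 and 3100). Regions of 850 bp at chr16:30975933-30976782, of 158 bp at chr16:30980626-30980783 and of 1050 bp at chr16:30990466-30991515 also stood at 3100 throughout. The one of 158 bp was the only member region of up to 300 bp at the ceiling in every list. Below the ceiling, the region at chr16:30982699-30983040 scored 2148, 2038 and 2023, a range of 1.06-fold. The last, at chr16:30995171-30995983, scored 1049, 516 and 1845.

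In SETD1B, 7 of 8 regions were in all 3 lists, each with identical edges. The 4 at the ceiling in every list were chr12:122247509-122248741 (+ strand, 1233 bp), chr12:122255276-122255610 (335 bp), chr12:122257310-122257801 (492 bp) and chr12:122260396-122261655 (1260 bp). The others scored 182, 161 and 91.2 at chr12:122246114-122246226, 1188, 1363 and 404 at chr12:122252012-122252836, and 704, 496 and 535 at chr12:122265839-122265976. The eighth and widest region, 2441 bp at chr12:122267972-122270412 near the 3′ bound of the locus, was called in MeRIP 2 alone, with a score of 633. That score was the highest among the 12 member regions of 1 list, whose median was 83.4.

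SETD2, the only enzyme known to add trimethylation over gene bodies in human cells and a tumour suppressor of kidney cancer, was dominated by 1 region. The region at chr3:47161672-47166038 (minus strand) was 4367 bp wide, scored 3100 in every list and had identical edges. It made up 72.7% of the summed width of the regions of SETD2 found in all 3 lists. A region of 663 bp at chr3:47125210-47125872 was also at the ceiling throughout.

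The remaining SETD2 regions were low. The one at chr3:47098311-47098980 scored 444, 549 and 180, the one at chr3:47127685-47127804 scored 342, 280 and 532, and the one at chr3:47129603-47129737 scored 401, 68.7 and 144. The narrowest member region, of 49 bp at chr3:47108560-47108608, nevertheless recurred in every list with 84.7, 58.4 and 138. The last region, 750 bp at chr3:47057995-47058744, was weak and absent from MeRIP 3, with 91.6 and 214 in MeRIP 1 and 2. Peaks of 91.3 and 69.6 stood alone in MeRIP 2 and MeRIP 3, at chr3:47084051-47084190 and chr3:47142948-47143045. The first SETD2 region began 39429 bp from the 5′ bound, the farthest among the 9 genes.

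EP300 and CREBBP encode the paired acetyltransferases p300 and CBP, which bind many transcription factors and are mutated in Rubinstein-Taybi syndrome. Both genes had a recurrent region near the 5′ bound, a second at the ceiling further in, and a last region over 3000 bp wide at the ceiling. In EP300 the 3 were chr22:41488614-41489102 (+ strand, 489 bp), chr22:41513191-41513825 (635 bp) and chr22:41572777-41576081 (3305 bp), all at 3100 in every list. In CREBBP they were chr16:3929833-3930121 (minus strand, 289 bp) with scores of 1865, 2163 and 1945, chr16:3900298-3901010 (713 bp) at 3100 throughout, and chr16:3776666-3779875 (3210 bp) at 3100 throughout. The last region made up 63.1% of the summed width of recurrent regions in CREBBP and 74.6% in EP300.

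The last regions of both genes shared their upstream edge in all 3 lists and differed at the downstream edge. In EP300 the peak ended at 41576022 in MeRIP 1 and at 41576081, the 3′ bound of the locus, in MeRIP 2 and 3. In CREBBP it ended at 3776811, 3776666 and 3776821 in MeRIP 1, 2 and 3, at least 1616 bp short of the 3′ bound. Between these, CREBBP had recurrent regions with 1812, 588 and 1269 at chr16:3820571-3820987 and 1265, 604 and 876 at chr16:3819175-3819354. Another, next to the last region at chr16:3781193-3781474, scored 2579, 1978 and 2954. In each of these MeRIP 2 was lowest.

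Regions of fewer lists were weak in both acetyltransferase genes. EP300 had 262 and 78.8 in MeRIP 1 and 2 at chr22:41545765-41546202 and 81.4 in MeRIP 1 alone at chr22:41569627-41569788. CREBBP had 202 and 213 in MeRIP 2 and 3 at chr16:3860604-3860780, 53.7 in MeRIP 2 alone at chr16:3832685-3832927 and 111 in MeRIP 3 alone at chr16:3823637-3823931.

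The first 50 transcribed bases at annotated starts were searched for GGAC, the core of a common m6A motif (RefSeq, GRCh38.p14, read along the transcript). Stretches are shown for EP300 and CREBBP, the genes with a start that holds it, with the motif in capitals.
EP300: gagaaggaggaGGACagcgccgaggaggaa
CREBBP: gccatcttgtcgcGGACccgaccggggctt
The EP300 stretch is chr22:41092592-41092621 on the plus strand and its motif begins at base 12 of the transcript. The CREBBP stretch is chr16:3880665-3880694 on the minus strand, with the motif at base 33 after the more upstream of 2 annotated starts, and the other start had no GGAC in its first 50 bases. Starts were found for 8 of the 9 genes, without SETD1B, and no other member start held GGAC on the sense strand. Those without it include KMT2A, KMT2C and SETD1A, whose first regions began 5, 0 and 5 bp from the hg19 5′ bound. That bound need not be the annotated start, as the SETD1A locus is 27376 bp and its RefSeq gene 26911 bp. Over all 35116 annotated starts 18.9% hold GGAC on the sense strand and 33.5% on either strand, so 2 of 9 member starts is near the background. A match is not a methylated site. The first regions of EP300 and CREBBP began 824 and 606 bp from the hg19 5′ bound, which are not distances from an annotated start. The EP300 locus is 88292 bp, longer than its RefSeq gene of 87486 bp. The 2 CREBBP starts are at 3880713 and 3880120 in GRCh38.p14, and which is nearer the first region was not tested. These starts were not aligned to the hg19 edges of the peaks, since the builds differ, so whether a stretch lies within a peak was not tested.

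**Figure D2:**
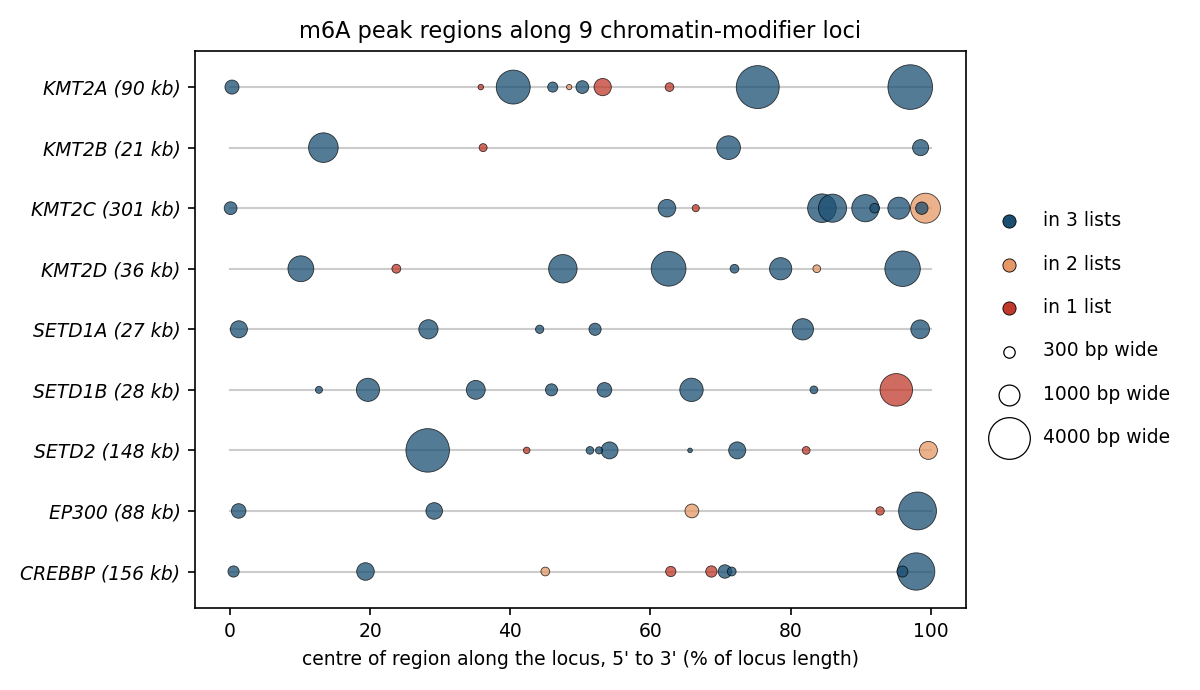
Each circle is a region of overlapping peaks, placed by its centre along the locus from 5′ to 3′ in percent of locus length; its area is proportional to its width and its colour gives the number of lists with a peak. The regions of KMT2C crowd in the last 20% of the locus, and in 4 of the 9 genes the widest circle found in 3 lists is the last. Locus length includes introns.

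Along the genes, the widest region was the last one in 6 of 9, but in KMT2C and SETD1B that last region was not in all 3 lists. Counting regions in all 3 lists, the widest was the last of its gene in 4 of 9: KMT2A, KMT2D, EP300 and CREBBP. The last region ended within 1000 bp of the 3′ bound in 7 of 9. The last region was in all 3 lists in 6 genes and had identical edges in 3 of them, KMT2B, KMT2D and SETD1A. At the other end, the first region began within 1000 bp of the 5′ bound in 5 genes: KMT2A, KMT2C, SETD1A, EP300 and CREBBP. No such counts were made over other genes of the series, so whether those of either end are particular to these 9 was not tested. The 5′ bound itself is uncertain for KMT2D and SETD1B, because the RefSeq gene in GRCh38.p14 is 5.46 kb and 14.6 kb longer than the locus used here. For the other 7 genes the lengths differ by at most 827 bp, which is not small beside the limit of 1000 bp used here. The loci of SETD1A and EP300 are longer than the RefSeq genes (27376 against 26911 bp, and 88292 against 87486 bp). Distances from the 5′ bound are therefore not distances from a transcript start.

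Among the 50 regions of the 9 genes with 1 peak in every list, edges were nearly always the same. Start and end were the same to the base in 47 (94.0%, interval 83.8 to 97.9%), beside 72.7% of such regions over the series. Over 1000 bp, 17 of 19 had identical edges (89.5%, interval 68.6 to 97.1%), beside 41.2% of such regions in the series. The 3 exceptions were the last regions of EP300 and CREBBP and the KMT2C region of 356 bp. The last regions of KMT2A, KMT2C and SETD2 also differed in their edges but lacked 1 peak in every list, so they were not counted. These shares were not split by score. Members in all 3 lists were more often at the ceiling (49.0%, beside 18.9%), and whether edges follow score was not tested. Identical edges mark the same called interval and do not place a methylated base within it. How edges were set is not stated in these sources.

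Scores below the ceiling varied between repeats by a similar factor in the 9 genes and in the series. Of 25 regions that stayed below 3100 in each list, 12 kept their 3 scores inside a 2-fold range (48.0%, interval 30.0 to 66.5%), beside 52.4%. The median ratio of the highest to the lowest score was 2.09, and 1.94 over the series. The lowest of the 3 scores was in MeRIP 1 in 4 of these regions, in MeRIP 2 in 13 and in MeRIP 3 in 8. MeRIP 2 was lowest in 52.0% of these 25 regions, beside 39.0% of such regions over the series. No interval was computed for this share, and the difference was not tested.

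**Figure D3:**
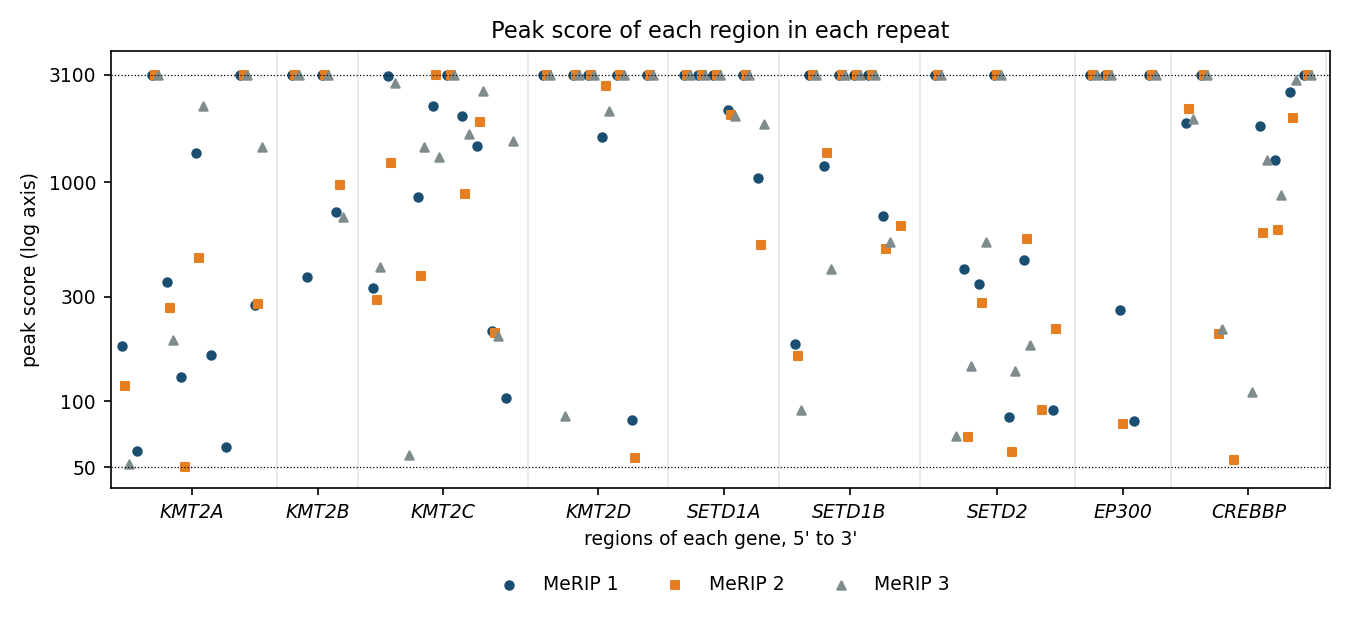
Peak score of each region in each list on a log axis, regions ordered from 5′ to 3′ within each gene; scores above 3100 are drawn at 3100, and dotted lines mark the ceiling of 3100 and the lowest score of 50. In KMT2B, KMT2D, SETD1A, SETD1B and EP300 most recurrent regions sit on the ceiling in all 3 lists; in KMT2A, KMT2C, SETD2 and CREBBP fewer do.

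The paralogues were compared by the length that peaks covered in each list, which sums over a gene's called peaks and so moves with how much was called. With 3 lists against 3, the exact two-sided permutation test cannot give a p below 0.1, and 4 pairs were compared. That test takes the values as independent, although each list supplies both genes. Its p reflects only the spread between lists, which may be technical. Any pair of genes whose values do not overlap reaches 0.1, whatever the size of the difference. KMT2B had 4059, 3912 and 3912 bp under peaks in MeRIP 1, 2 and 3, against the 13558, 12583 and 11938 bp of KMT2A. The values did not overlap, and KMT2B was lower by a mean difference of -8732 bp (exact permutation p = 0.1, adjusted p = 0.133 by Benjamini-Hochberg). KMT2B was lower in 3 of 3 lists. The difference was -3922 bp with the weaker peaks of each list (under its median score) left out, and -777 bp with peaks of at most 1000 bp.

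KMT2C had 10272, 8157 and 9544 bp, against 10546, 10546 and 10591 bp in KMT2D, a difference of -1237 bp with no overlap (exact permutation p = 0.1, adjusted p = 0.133). Without MeRIP 2 the difference was -661 bp, and with peaks of at most 1000 bp its sign changed, to 1350 bp. SETD1B had 4396, 6837 and 4396 bp, against 3884 bp in each list in SETD1A, a difference of 1326 bp (exact permutation p = 0.1, adjusted p = 0.133). Most of that came from the 2441 bp region called in MeRIP 2 alone. Without MeRIP 2 the difference was 512 bp, and with peaks of at most 1000 bp it was -931 bp, the opposite sign.

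CREBBP had 4946, 5511 and 5408 bp, against 4970, 4867 and 4429 bp in EP300. The values overlapped. Within MeRIP 1, 2 and 3 CREBBP minus EP300 was -24, 644 and 979 bp, and the mean difference was 533 bp (exact permutation p = 0.2, adjusted p = 0.2), with 310 bp without MeRIP 3 and 812 bp without MeRIP 1. No pair passed a threshold of 0.05, which this number of lists does not allow. The loci of a pair are also unequal in length, with 20.9 kb for KMT2B against 90.3 kb for KMT2A and 301 kb for KMT2C against 36.4 kb for KMT2D. As a share of the locus, mean coverage was 19.0% in KMT2B and 14.1% in KMT2A, and 3.40% in CREBBP and 5.39% in EP300. Those directions are opposite to the ones in bp. It was 3.10% in KMT2C and 29.0% in KMT2D, and 18.7% in SETD1B and 14.2% in SETD1A, the same directions as in bp. Transcript length was not used. SETD2, which has no paralogue in the set, had 6742, 6894 and 6102 bp under peaks.

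**Figure D4:**
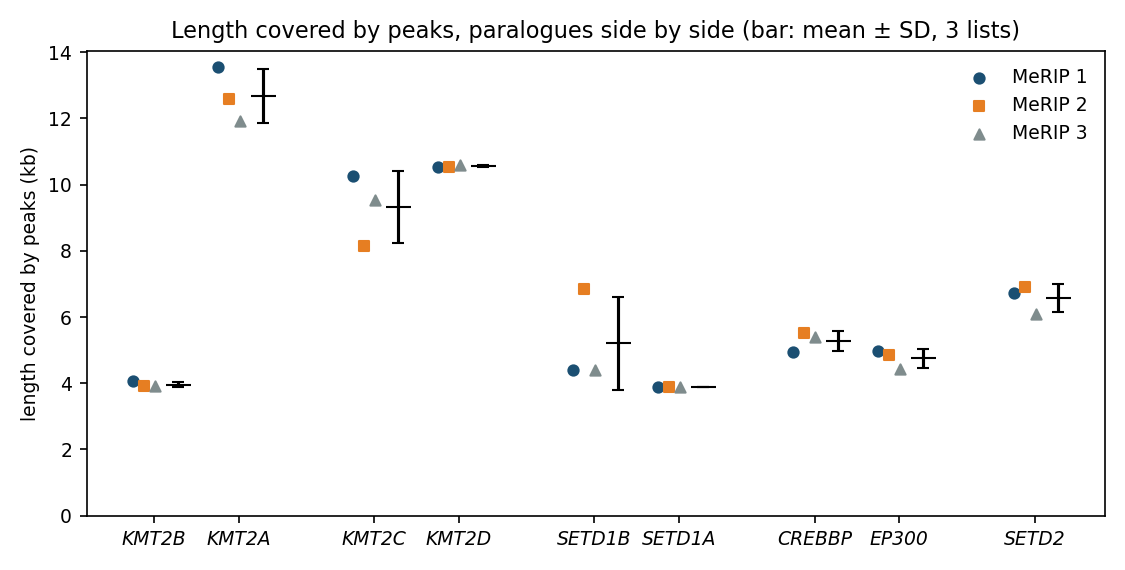
Length covered by peaks in kb for each gene and list, with paralogues side by side; the bar beside each gene's points is the mean with its SD over 3 lists. KMT2B lies below KMT2A in every list, and the high point of SETD1B is MeRIP 2, at 6837 bp.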

How the data were processed

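MeRIP-seq peak lists of 3 repeats in HEK293T cells were used, each tied by the labels to the IP and Input of 1 repeat. The submitters' processing notes name HISAT2 2.0.4, cutadapt 1.9.3 and the build hg19. Peak names carry the word MACS, whose settings these sources do not state. The score of each peak is the value the authors deposited. It was not tested as a methylation level, and scores above the ceiling of 3100 were set to it for medians. Same-strand peaks with an overlap of 1 bp or more formed a region, whose score in a list is the highest of its peaks there. Loci are the hg19 spans given for the 9 genes, with coordinates counted from 1. Merging was checked on simulated lists. Regions named are, by rule, the widest, the highest-scoring, the first and last of each gene and those of fewer than 3 lists; others were added after their values were seen. The genes, the loci and the comparisons were chosen with earlier results of these data known. Cofactor genes were not analysed here, as no hg19 annotation was used. Alternatives covered gene assignment, strand, score, width, overlap, the ceiling and leaving out 1 repeat. Computation was done in Python 3.11.15 with SciPy 1.17.1, NumPy 2.4.6 and pandas 2.3.3, and plots with Matplotlib 3.10.9.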

Additional observations from a re-analysis of the deposited data

How the results depend on the processing

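IP and Input could not be paired, as each repeat has 1 peak list for both. Paralogues were also paired by list (a replicate block, chosen after seeing the data) with an exact two-sided sign-flip test, whose smallest p is 0.25. The mean differences are the same by construction, -8732, -1237, 1326 and 533 bp, with exact p = 0.25, 0.25, 0.25 and 0.5 (adjusted 0.333, 0.333, 0.333 and 0.5) for KMT2B minus KMT2A, KMT2C minus KMT2D, SETD1B minus SETD1A and CREBBP minus EP300. Assigning peaks by any overlap with a locus, ignoring strand, a ceiling of 3000 and scores as deposited left the values they apply to unchanged. All values under the alternative settings are for the 9 genes alone. No series value under the same setting is set beside them, so whether the differences from the series hold there was not tested. With only the stronger peaks, those not under the median score of their list, 84.8% of member regions were in all 3 lists, covered length was 53042 bp, the median log2 lowest score was 11.60 and 64.1% of regions were at the ceiling, a setting that drops weak peaks. With peaks of at most 1000 bp, which drops wide ones, 31 regions were in all 3 lists, covered length was 14672 bp (62256 bp for all peaks), the median log2 score was 9.44 and 29.0% were at the ceiling. The difference of KMT2C minus KMT2D was then 1350 bp and that of SETD1B minus SETD1A -931 bp, both reversed. With a 50% reciprocal overlap, counted as peaks of MeRIP 1, the share in all lists was 83.6% and covered length 57965 bp. Leaving out 1 repeat gave 52 to 55 regions in both remaining lists, a share of 78.8 to 84.6%, covered length of 61698 to 63282 bp, a median log2 score of 10.95 to 11.40, identical edges in 90.9 to 98.0% and 45.5 to 48.1% at the ceiling. Paralogue differences then ran from -9085 to -8349 bp for KMT2B minus KMT2A, -1718 to -661 bp for KMT2C minus KMT2D, 512 to 1733 bp for SETD1B minus SETD1A and 310 to 812 bp for CREBBP minus EP300.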

Other observations

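Upstream of the KMT2D locus, on the same strand, a region of 162 bp at chr12:49453396-49453557 (hg19) had identical edges and a score of 3100 in all 3 lists. It lies 4.29 kb beyond the 5′ bound used for KMT2D and is not among its 8 regions. RefSeq's KMT2D gene in GRCh38.p14 is 5.46 kb longer than the locus, and whether the region belongs to KMT2D was not tested. It was noticed after the values were seen. No peak lay in the corresponding 14.6 kb upstream of SETD1B on its strand.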
